A study of Mus musculus with 12 samples.

Results

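The interleukin-1 (IL-1) family comprises cytokines, the receptors that bind them and a set of natural inhibitors. Of 10 listed genes of this family, namely Il1a, Il1b, Il18, Il33, Il1rn, Il1r2, Il18bp, Il1r1, Il1rl1 and Il1rap, the 8 that have a row with a single gene symbol in the annotated value table of 35556 rows were analysed, each with 1 row. Il1r1 and Il1rl1, the signaling receptors of IL-1 and of IL-33, were not analysed here. The values were log2 intensities of Affymetrix arrays hybridized with RNA of cells sorted from digested cecum of WT and Runx3-cKO littermates on the C57Bl/6 background, aged 6 to 8 weeks. In the Runx3-cKO mice, called Runx3Δ below, CD11c-Cre deleted exon 3 of the floxed Runx3 gene, so that every CD11c-expressing cell of the body, not the colon alone, was a target of the deletion. Each sample was a pool of 3 to 4 mice. Resident macrophages (RM) were sorted as Ly6c- cells positive for CD45, CD11c, MHCII, CD11b and F4/80, and CD11b+ dendritic cells (DC) by the same markers without F4/80. There were 3 WT and 4 Runx3Δ samples of RM, and 2 WT and 3 Runx3Δ samples of CD11b+ DC.

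IL-1α, IL-1β, IL-18 and IL-33 are ligands made by myeloid or tissue cells, and IL-1β and IL-18 are released after cleavage by caspase-1 in an inflammasome. The IL-1 receptor antagonist (Il1rn) and the decoy receptor IL-1R2 (Il1r2) hold IL-1 in check, and the IL-18 binding protein (Il18bp) does so for IL-18. The accessory protein IL-1RAcP (Il1rap) is the shared signaling chain of the IL-1 and IL-33 receptors. Signals pass through MyD88 and IRAK kinases to NF-κB. In the gut, macrophages are a main source of IL-1β, whereas IL-33 is known as a nuclear alarmin of epithelial, endothelial and stromal cells.

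The libraries were checked before the comparisons. Runx3Δ RM replicate 1 stood apart on the second principal component and had the lowest mean correlation with the other RM samples, 0.980, so the RM genotype differences of the members and of the pathway genes named for RM are also given without it. Of 11 resident macrophage markers 10 were lower in WT CD11b+ DC than in WT RM, and of 10 CD11b+ DC markers 8 were higher and 1 (Sirpa) was lower, each at an adjusted p under 0.05 (limma). Where the probes of the Runx3 row lie against the deleted exon was not examined here, so its level was not taken as a check of the genotype. It was 0.26 higher in Runx3Δ than WT RM (unadjusted p = 0.0474, adjusted p = 0.617, limma) and -0.01 apart in CD11b+ DC (adjusted p = 0.994, limma). A bulk level cannot tell fewer expressing cells from less RNA per cell, and levels of different genes are not compared because each row has its own probes. Whether groups overlap is given below as a description only, since the share of all rows without overlap was not counted. Directions in litter-matched pairs are a description too, since they reuse the same values and their share over all rows was not counted.

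Runx3 is a transcription factor that binds short DNA letters, TGTGGT or TGCGGT, so the promoter windows of the members are shown first. RefSeq windows (GRCm38.p6) from 250 bases before to 50 after the start were found for all 10 listed genes, 15 windows in all, and both strands were searched. TGTGGT stood in 16.8% of all promoter windows and TGCGGT in 6.45%, and 22.4% held either. Of the 8 analysed members 2, Il18bp and Il18, had a match. Il33 has windows at 2 starts, both on the plus strand, at chr19:29924863-29925112 and chr19:29945540-29945789 for the 250 bases before each start, and Il1rap has one on the plus strand at chr16:26581455-26581704. These are printed because Il33 and Il1rap had the lower levels in Runx3Δ samples described below, and neither RUNX motif stood in their windows. The short stretches of Il18bp (minus strand, chr7:102018183-102018212, 41 bases after the start) and Il18 (plus strand, chr9:50554623-50554652, 65 bases before the start, motif on the opposite strand) carry the RUNX letters in capitals. A match describes letters in the window and is not a site, and its absence says nothing of the factor.
Il33, first start: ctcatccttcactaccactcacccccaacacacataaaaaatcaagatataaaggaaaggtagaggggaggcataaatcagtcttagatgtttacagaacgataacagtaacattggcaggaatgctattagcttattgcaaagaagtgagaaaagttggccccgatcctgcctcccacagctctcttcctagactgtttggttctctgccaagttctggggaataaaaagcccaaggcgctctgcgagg
Il33, second start: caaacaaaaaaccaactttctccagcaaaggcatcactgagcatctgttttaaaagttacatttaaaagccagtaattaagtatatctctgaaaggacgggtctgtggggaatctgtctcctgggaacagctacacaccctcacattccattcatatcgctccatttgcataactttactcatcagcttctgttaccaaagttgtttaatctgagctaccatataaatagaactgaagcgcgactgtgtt
Il1rap: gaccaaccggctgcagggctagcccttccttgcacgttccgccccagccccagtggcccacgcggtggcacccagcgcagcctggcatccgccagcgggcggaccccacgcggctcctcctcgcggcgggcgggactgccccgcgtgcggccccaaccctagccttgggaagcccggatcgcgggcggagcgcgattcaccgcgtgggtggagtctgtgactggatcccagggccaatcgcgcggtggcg
Il18bp: gcagggaagttgctccttccTGTGGTgaga
Il18: tacagaacaaaaACCACAgggtttgagaca

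Among the ligands, Il33 was the gene whose level differed most between Runx3Δ and WT samples, with a lower mean in both cell types. In RM, its log2 level was 6.76, 6.26 and 7.36 in the WT samples and 5.41, 5.62, 6.52 and 5.82 in the Runx3Δ samples. The groups overlapped through 1 sample on each side, since Runx3Δ replicate 3 lay above WT replicate 2. The difference was -0.95 on the log2 scale (95% CI -1.60 to -0.30), a 1.93-fold lower level, which did not pass the adjusted threshold (adjusted p = 0.453, limma over all rows). Without Runx3Δ replicate 1 it was -0.80 (adjusted p = 0.680, limma).

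In CD11b+ DC, the Il33 level was 6.60 and 6.67 in the WT samples against 4.90, 5.54 and 4.93 in the Runx3Δ samples. The groups did not overlap, and 2 of the Runx3Δ values lay below 5, the log2 level taken here as dim. The difference was -1.52 (95% CI -2.30 to -0.74), a 2.87-fold lower level, again without passing the adjusted threshold (adjusted p = 0.367, limma). The Runx3 effect in CD11b+ DC minus that in RM was -0.57 (95% CI -1.59 to 0.45; adjusted p = 1.00, limma). The sample labels give litter numbers, and in each of the 4 litter-matched pairs the Runx3Δ sample had the lower Il33 level, with differences of -1.35, -0.64 and -0.83 in RM and of -1.14 in CD11b+ DC. The CD11b+ DC pair came from litter 3, which also gave an RM pair, so the 4 pairs are not independent litters. They reuse the values above, and the share of all rows with the same direction in all 4 pairs was not counted.

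**Figure D1:**
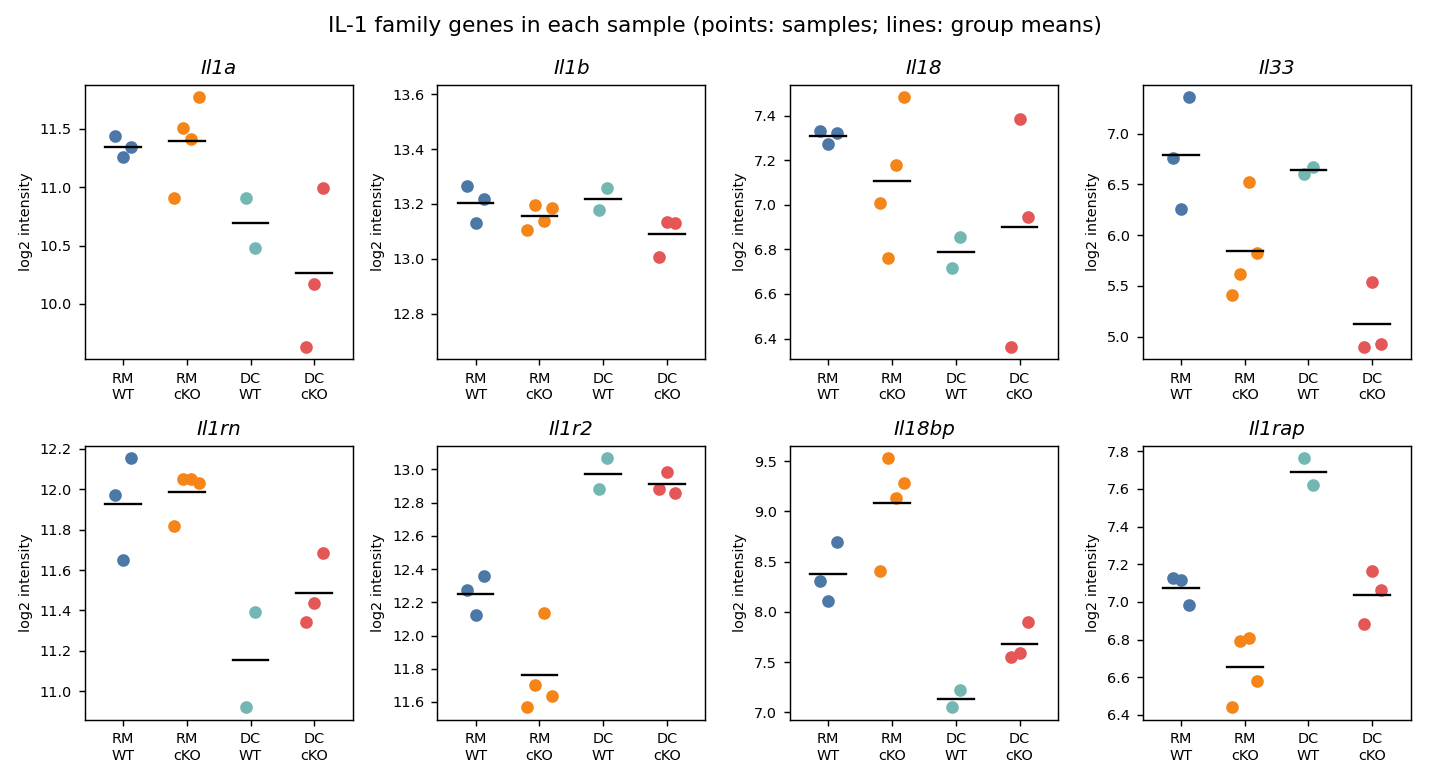
Log2 intensity (y axis) of the 8 IL-1 family genes in each sample, by group (x axis: RM and CD11b+ DC, WT and Runx3Δ, labelled cKO); points are samples and lines group means. Il33 lies between 4.90 and 5.54 in the Runx3Δ CD11b+ DC and at 6.60 and 6.67 in the WT CD11b+ DC, while Il1b lies between 13.005 and 13.264 in all 12 samples.

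IL-33 is known as a product of stromal cells, and 12 stromal marker genes, among them the collagens Col1a1 and Col3a1 and the matrix proteoglycan decorin (Dcn), were read in the same samples. All 12 had differences below 0 between Runx3Δ and WT samples, both in RM (median -0.37 on the log2 scale) and in CD11b+ DC (median -0.59), against a median of 0.01 over 19938 genes in both comparisons. At an unadjusted p under 0.05 (limma), 3 of 12 passed in RM and 5 of 12 in CD11b+ DC. Of all genes by their brightest row, 9.03% and 7.42% did. At an adjusted p under 0.05 (limma), 1 of 12 passed in RM and 0 of 12 in CD11b+ DC. The one that passed, named after its value was seen, was the fibroblast activation protein gene Fap, with a difference of -1.03 (adjusted p = 0.00790, limma). Fap and Col14a1 also differed between WT CD11b+ DC and WT RM, by -1.08 and -1.63 (adjusted p = 0.000355 and 0.000377, limma). No other stromal marker passed there, and the median of the 12 was -0.21. Whether RM themselves express Fap was not tested. The log2 of the summed intensity of the 12 ran from 10.23 to 10.95 in WT RM, from 9.85 to 10.49 in Runx3Δ RM, from 9.96 to 10.76 in WT CD11b+ DC and from 9.43 to 9.79 in Runx3Δ CD11b+ DC. One of the 12, lumican (Lum), stayed below a log2 level of 5 in every sample. WT RM replicate 3 had the highest Il33 level and the lowest stromal sum of the WT RM. Without Runx3Δ RM replicate 1 the RM median was -0.43, with all 12 genes below 0. Immediate-early and dissociation stress genes were also below 0 in most cases, 10 of 13 in RM (median -0.47) and 13 of 13 in CD11b+ DC (median -0.43). Markers of the other known sources were read as well. Of 8 endothelial markers 3 lay below 0 in RM and 4 in CD11b+ DC (median 0.04 in both). They ran from -0.14 to 0.18 in RM and from -0.48 (Cdh5) to 0.65 (Esam) in CD11b+ DC. Of 12 epithelial markers 8 lay above 0 in RM (median 0.15) and 10 in CD11b+ DC (median 0.28), with 0 of either list passing an adjusted p under 0.05 (limma). The part of any of these lists in the Il33 result was not tested.

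**Figure D2:**
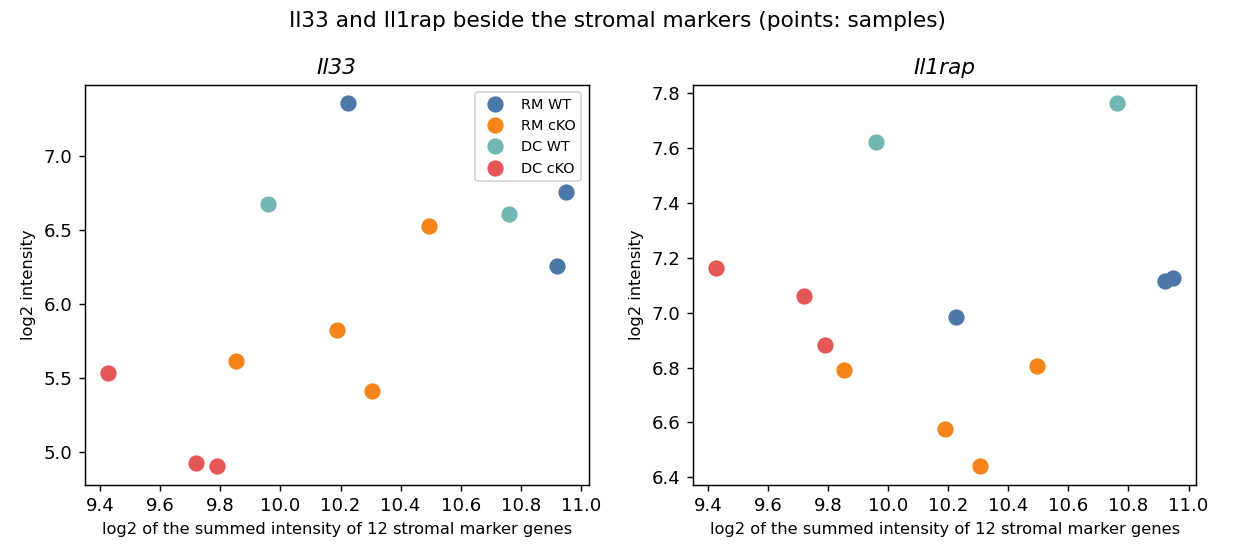
Log2 intensity of Il33 (left) and Il1rap (right) on the y axes against the log2 of the summed intensity of 12 stromal marker genes on the x axes, 1 point per sample, colored by group. The Runx3Δ CD11b+ DC lie lowest on the x axis, from 9.43 to 9.79, and hold the lowest 2 Il33 levels, 4.90 and 4.93. Within that group, the sample with the lowest stromal sum, 9.43, had the highest Il33 level, 5.54.

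The other 3 ligands gave no genotype difference past the threshold. Il1b, which encodes IL-1β, had log2 levels of 13.264, 13.130 and 13.218 in WT RM, 13.104, 13.196, 13.139 and 13.184 in Runx3Δ RM, 13.180 and 13.257 in WT CD11b+ DC, and 13.005, 13.134 and 13.132 in Runx3Δ CD11b+ DC. The groups overlapped in RM, and in CD11b+ DC all Runx3Δ samples lay just below both WT samples. The differences were -0.05 (95% CI -0.22 to 0.12) in RM, -0.03 there without Runx3Δ replicate 1, and -0.13 (95% CI -0.33 to 0.07) in CD11b+ DC. The Il1b row lay near the top of the scale, with 61 of 35556 rows brighter in their mean and 13.98 as the highest value of the table, and whether the scale is compressed there was not tested, so the narrow intervals do not show that Il1b RNA was alike.

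Il1a, the gene of the cell-associated ligand IL-1α, had log2 levels of 11.44, 11.26 and 11.34 in WT RM and 10.91, 11.51, 11.41 and 11.77 in Runx3Δ RM. In CD11b+ DC they were 10.91 and 10.48 in the WT and 9.64, 10.17 and 10.99 in the Runx3Δ samples, which spread most and overlapped with the WT. The genotype difference was 0.05 (95% CI -0.57 to 0.68) in RM, 0.21 without Runx3Δ replicate 1, and -0.43 (95% CI -1.18 to 0.32) in CD11b+ DC. The latter was -0.22 without WT CD11b+ DC replicate 1, -0.64 without WT replicate 2, -0.11 without Runx3Δ replicate 1 and -0.79 without Runx3Δ replicate 3.

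Il18, the gene of the interferon-γ-inducing cytokine IL-18, had log2 levels of 7.33, 7.28 and 7.32 in WT RM against 7.01, 6.76, 7.18 and 7.48 in Runx3Δ RM. The CD11b+ DC levels were 6.72 and 6.86 in the WT and 6.36, 7.39 and 6.95 in the Runx3Δ samples. The groups overlapped within both cell types, with differences of -0.20 (95% CI -0.68 to 0.28) in RM and 0.11 (95% CI -0.46 to 0.69) in CD11b+ DC. The RM value was -0.17 without Runx3Δ replicate 1, -0.09 without replicate 2 and -0.33 without replicate 4.

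Of the receptor genes, Il1rap had the lower mean in Runx3Δ samples of both cell types, with no overlap of the groups in either. In RM, its log2 level was 7.12, 7.12 and 6.98 in the WT and 6.44, 6.79, 6.81 and 6.58 in the Runx3Δ samples. The difference was -0.42 (95% CI -0.67 to -0.17; adjusted p = 0.337, limma), and -0.35 without Runx3Δ replicate 1 (adjusted p = 0.507, limma). In CD11b+ DC, the level was 7.76 and 7.62 in the WT against 6.88, 7.16 and 7.06 in the Runx3Δ samples. All 3 Runx3Δ samples lay below both WT samples, and the difference was -0.66 (95% CI -0.95 to -0.36), a 1.58-fold lower level that did not pass (adjusted p = 0.276, limma). The Runx3Δ sample was the lower one in 4 of 4 litter-matched pairs, with litter 3 counted in both cell types. With litter as a block the CD11b+ DC difference was -0.54, which is under the 1.5-fold threshold of the study.

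Of the inhibitors, Il18bp had the higher mean in Runx3Δ samples of both cell types. In RM, its log2 level was 8.31, 8.11 and 8.70 in the WT and 8.40, 9.53, 9.13 and 9.28 in the Runx3Δ samples. All Runx3Δ samples but replicate 1 lay above all WT samples. The difference was 0.71 (95% CI 0.19 to 1.23; adjusted p = 0.492, limma), and 0.94 without Runx3Δ replicate 1 (adjusted p = 0.174, limma). In CD11b+ DC the level was 7.05 and 7.22 in the WT against 7.55, 7.59 and 7.90 in the Runx3Δ samples, without overlap, a difference of 0.54 (95% CI -0.08 to 1.17; adjusted p = 0.777, limma). The Runx3Δ sample was the higher one in 4 of 4 litter-matched pairs, by 0.09, 1.42 and 0.43 in RM and by 0.37 in CD11b+ DC, with litter 3 counted in both cell types.

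Il1r2, the decoy that binds IL-1 without signaling, had log2 levels of 12.27, 12.12 and 12.36 in WT RM and 11.57, 11.70, 12.14 and 11.63 in Runx3Δ RM. Replicate 3 of the Runx3Δ samples lay just above the lowest WT sample and the others lay below all WT samples. The difference was -0.49 (95% CI -0.79 to -0.20; adjusted p = 0.347, limma), and -0.43 without Runx3Δ replicate 1 (adjusted p = 0.556, limma). In CD11b+ DC the level was 12.88 and 13.07 in the WT and 12.88, 12.99 and 12.86 in the Runx3Δ samples, a difference of -0.06 (95% CI -0.42 to 0.29). Il1r2 too was lower in the Runx3Δ sample of 4 of 4 litter-matched pairs, with differences of -0.71, -0.42 and -0.22 in RM and -0.08 in CD11b+ DC. The Runx3 effect in CD11b+ DC minus that in RM was 0.43 (95% CI -0.03 to 0.89; adjusted p = 1.00, limma), so a difference between the cell types was not shown. The Il1r2 row lay near the top of the scale as well, with 242 of 35556 rows brighter in their mean. Whether the scale is compressed there was not tested.

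Il1rn, the gene of the receptor antagonist, had log2 levels of 11.97, 11.65 and 12.15 in WT RM and 11.82, 12.05, 12.05 and 12.03 in Runx3Δ RM. In CD11b+ DC they were 10.92 and 11.39 in the WT and 11.34, 11.44 and 11.69 in the Runx3Δ samples. The groups overlapped within both cell types, with differences of 0.06 (95% CI -0.27 to 0.39) in RM, 0.12 without Runx3Δ replicate 1, and 0.33 (95% CI -0.06 to 0.73) in CD11b+ DC. The latter rested on the WT samples, since it was 0.095 without WT replicate 1 and 0.57 without WT replicate 2.

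In all, 0 of the 8 members passed an adjusted p under 0.05 between Runx3Δ and WT RM, where 0.0141% of all rows passed, and 0 between Runx3Δ and WT CD11b+ DC, where 0% passed (limma, Benjamini-Hochberg). At an unadjusted p under 0.05, 4 members passed in RM (Il33, Il1r2, Il1rap and Il18bp) and 2 in CD11b+ DC (Il33 and Il1rap), where 7.96% and 6.74% of all rows and 9.03% and 7.42% of genes by their brightest row did. The study called genes at a change of 1.5-fold or more and p of at most 0.05 before adjustment. By that rule, applied here to p of the limma fit, Il33 (lower) and Il18bp (higher) passed in RM, 2 of 8, where 1.46% of all rows and 1.34% of genes by their brightest row passed. With the methods' test on 2 groups, neither passed in RM. In CD11b+ DC, Il33 and Il1rap (both lower) passed, 2 of 8, against 2.13% of rows and 1.75% of genes. The Il18bp call was lost without WT RM replicate 2 or Runx3Δ RM replicate 2 and the Il1rap call without Runx3Δ CD11b+ DC replicate 1, whereas Il33 passed in RM and CD11b+ DC with any 1 sample left out. The members' median difference was -0.12 in RM and -0.10 in CD11b+ DC, and 5 of 8 lay below 0 in each. None of the 8 differed in its Runx3 effect between the cell types (0% of all rows passed, limma), and 0 did so at an unadjusted p under 0.05, where 3.91% of all rows did.

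The mean of the genotype differences in RM and CD11b+ DC was fitted as well, a comparison chosen after the values had been seen. Il33 then differed by -1.23 (95% CI -1.74 to -0.73; adjusted p = 0.0883, limma) and Il1rap by -0.54 (95% CI -0.73 to -0.35; adjusted p = 0.0636, limma), ranks 96 and 40 by p among 35556 rows. Il18bp differed by 0.63 (95% CI 0.22 to 1.03; adjusted p = 0.256, limma). Again 0 of 8 members passed, beside 0.0112% of all rows. That fit took RM and CD11b+ DC samples of the same litter as independent. With litter as a fixed block, Il33 differed by -1.19 (adjusted p = 0.134, limma) and Il1rap by -0.47 (adjusted p = 0.212, limma).

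**Figure D3:**
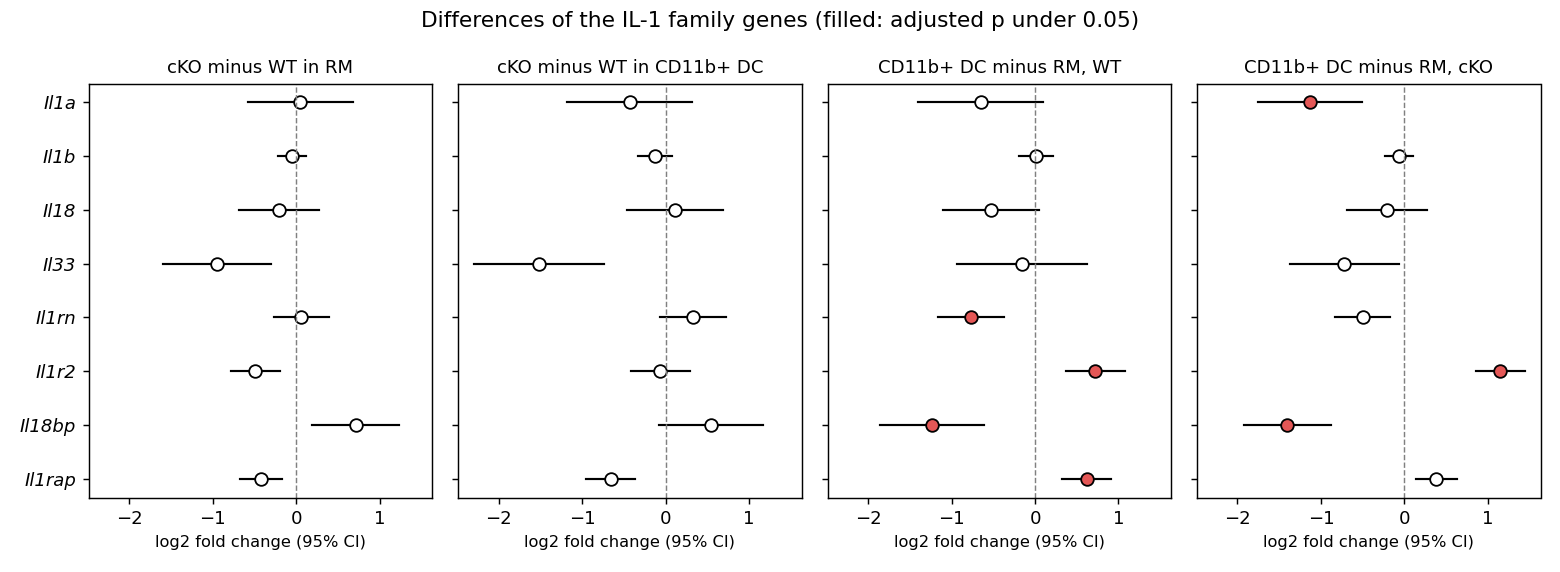
Log2 fold changes (x axes, points) with 95% confidence intervals (lines) of the 8 IL-1 family genes in 4 comparisons; filled points passed an adjusted p under 0.05 (limma), and cKO stands for Runx3Δ. No point is filled in the 2 genotype comparisons, 4 are filled between the WT cell types and 3 between the Runx3Δ cell types.

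Between the cell types, the inhibitors split: WT CD11b+ DC had more RNA of the decoy receptor Il1r2 and less of Il18bp and Il1rn than WT RM, and more of the signaling chain Il1rap. Il1r2 was higher by 0.72 (95% CI 0.37 to 1.07; adjusted p = 0.0211, limma) and Il1rap by 0.62 (95% CI 0.32 to 0.91; adjusted p = 0.0196, limma). Il18bp differed by -1.24 (95% CI -1.86 to -0.61; adjusted p = 0.0252, limma), a 2.35-fold lower level, and Il1rn by -0.77 (95% CI -1.16 to -0.37; adjusted p = 0.0280, limma). For these 4 genes the values given above do not overlap between the WT groups, which was also so for Il1a and Il18. The share of all rows without overlap was not counted, so this adds no support. By adjusted p (limma), 4 of 8 members passed, where 6.07% of all rows and 8.45% of genes by their brightest row did. The count rests on few samples: it was 0 without WT CD11b+ DC replicate 1, 1 (Il1rn) without WT CD11b+ DC replicate 2, 1 (Il1r2) without WT RM replicate 3, and 3 without WT RM replicate 1 (Il1rn lost) or 2 (Il1r2 lost). Fitted alone, the 2 groups gave 1 (Il18bp).

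Among the ligands, no difference between the WT cell types passed. Il1b differed by 0.01 (95% CI -0.19 to 0.22), Il33 by -0.15 (95% CI -0.93 to 0.63), Il18 by -0.52 (95% CI -1.10 to 0.05) and Il1a by -0.65 (95% CI -1.40 to 0.09). All WT CD11b+ DC samples lay below all WT RM samples for Il18 and Il1a.

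Between the Runx3Δ cell types, Il1r2 was again higher in CD11b+ DC, by 1.15 (95% CI 0.86 to 1.44; adjusted p = 0.000352, limma), a 2.22-fold higher level. Il18bp differed by -1.40 (95% CI -1.92 to -0.88; adjusted p = 0.00368, limma) and Il1a by -1.13 (95% CI -1.76 to -0.51; adjusted p = 0.0325, limma), the latter with 1 CD11b+ DC sample at 10.99 above the lowest RM sample at 10.91. The Il1a call was lost when Runx3Δ RM replicate 2, 3 or 4 or Runx3Δ CD11b+ DC replicate 1 or 2 was left out. These 3 of 8 members passed, where 7.85% of rows and 10.6% of genes did. Il1rn (-0.50, adjusted p = 0.0718) and Il1rap (0.38, adjusted p = 0.0665) did not pass in limma, although their groups did not overlap, and with litter as a block Il1rn passed (adjusted p = 0.0419, limma). Il33 differed by -0.72 (95% CI -1.37 to -0.07; adjusted p = 0.206, limma). The comparisons between cell types use the same samples as those between genotypes.

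Markers of other cells differed between RM and CD11b+ DC too. All 7 B and plasma cell markers measured were lower in CD11b+ DC (median -1.04 in the WT), with a log2 summed intensity of 11.36 to 12.79 in WT RM and 10.66 to 11.42 in WT CD11b+ DC. The sum of 15 granulocyte markers, 6 of them below a log2 level of 5 in every sample, was 10.80 to 11.01 in WT RM and 9.79 to 9.82 in WT CD11b+ DC. The 2 genes with the largest differences, named after their values were seen, were the gelatinase gene Mmp9 (means of 8.90 and 6.45) and the G-CSF receptor gene Csf3r (means of 9.62 and 7.61), while 7 of the 15 lay above 0 and 8 below (median -0.02). In the Runx3Δ samples this sum was 11.13 to 11.40 in RM and 9.98 to 10.18 in CD11b+ DC, above the WT of the same cell type without overlap, and 12 of 15 genes lay above 0 between genotypes in RM (median 0.17) and 11 of 15 in CD11b+ DC (median 0.09), with 0 passing an adjusted p under 0.05 (limma). The sum of 12 epithelial markers was 9.22 to 9.58 in WT RM and 9.88 to 10.11 in WT CD11b+ DC. The largest differences, chosen in the same way, were those of the adhesion genes Cdh1 (3.21) and Epcam (1.21), whereas 9 of the 12 lay below 0 (median -0.18). The part of these lists in the members' differences, between cell types or genotypes, was not tested.

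The order of the groups by level differed between members. Il1r2 was highest in both CD11b+ DC groups, which were not separated from each other, then in WT RM, and lowest in Runx3Δ RM. Il18bp ran the other way, from Runx3Δ RM (mean 9.08, SD 0.48, n = 4) through WT RM (mean 8.37, SD 0.30, n = 3) to Runx3Δ CD11b+ DC (mean 7.68, SD 0.19, n = 3) and WT CD11b+ DC (mean 7.14, SD 0.12, n = 2). Il1rap was highest in WT CD11b+ DC (mean 7.69, SD 0.10, n = 2), lowest in Runx3Δ RM (mean 6.65, SD 0.18, n = 4), and the WT RM (mean 7.07, SD 0.08, n = 3) and Runx3Δ CD11b+ DC (mean 7.04, SD 0.14, n = 3) between them overlapped. Il33 was close in both WT groups (mean 6.79, SD 0.55, n = 3 in RM and mean 6.64, SD 0.05, n = 2 in CD11b+ DC) and lower in Runx3Δ RM (mean 5.84, SD 0.49, n = 4) and Runx3Δ CD11b+ DC (mean 5.12, SD 0.36, n = 3). Il1a and Il1rn were higher in both RM groups than in both CD11b+ DC groups by their means, with the genotypes of a cell type overlapping. In none of these orders did the 2 genotypes of a cell type differ at an adjusted p under 0.05 (limma).

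The genes whose level ran most like that of a member were found by Pearson's r over the 12 samples, among 12211 genes, as a description, since samples share cell type and genotype. For Il33 these were Tnfsf14 (r = 0.912), a TNF family ligand, Irf2bpl (0.905) and Angptl4 (0.894). For Il18bp they were Ly9 (0.979), Tmbim4 (0.976) and Gpr162 (0.964), and for Il1r2 they were Usp2 (0.977), the peptidase gene Dpp4 (0.977) and Grasp (0.973). For Il1rap they were Gpcpd1 (0.960), Cyb5d1 (0.950) and Lekr1 (0.947), for Il1rn Psen2 (0.958), Ninj1 (0.953) and Clec5a (0.951), and for Il1a Cdc42ep4 (0.956), Lrrcc1 (0.953) and S100a1 (0.945). For Il1b they were Rraga (0.901), Chordc1 (0.896) and Marveld2 (0.880), and for Il18 BC028528 (0.868), Ddrgk1 (0.839) and Eri3 (0.838).

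The family has 11 further genes on the array, among them the receptors of IL-18 and IL-36. None passed an adjusted p under 0.05 between Runx3Δ and WT in RM (median difference 0.09, limma) or CD11b+ DC (median 0.04), and at an unadjusted p under 0.05 they numbered 0 and 3. Of all genes by their brightest row, 9.03% and 7.42% had such an unadjusted p. Between the WT cell types, both IL-18 receptor chains had the largest differences of the 11. Il18rap, the accessory chain, had a log2 level of 5.60, 5.99 and 5.93 in WT RM and of 7.91 and 8.66 in WT CD11b+ DC, a difference of 2.45 (adjusted p = 0.000241, limma). In the Runx3Δ samples it was 5.60, 6.21, 6.02 and 5.70 in RM and 7.36, 7.95 and 7.53 in CD11b+ DC, 1.73 higher (adjusted p = 0.000545, limma). Il18r1, the ligand-binding chain, was 1.24 higher in WT CD11b+ DC (adjusted p = 0.00446, limma), at a mean of 5.46 against 4.22, the latter in the dim range. Sigirr, a receptor that dampens IL-1 signaling, was 0.66 higher in the WT (adjusted p = 0.0148, limma) and 0.52 higher in the Runx3Δ CD11b+ DC (adjusted p = 0.0172, limma). In the Runx3Δ comparison Il36g (listed as Il1f9), a dim row, was 0.57 higher (adjusted p = 0.0107) and the IL-36 receptor Il1rl2 differed by -0.80 (adjusted p = 0.0317) in limma. Il1r2, Il1r1, Il1rl2, Il1rl1, Il18r1 and Il18rap follow each other in this order on chromosome 1, with no other protein-coding gene between them in the RefSeq table. Of the 4 with a row, Il1r2, Il18r1 and Il18rap had higher mean levels in CD11b+ DC of both genotypes, and Il1rl2 a lower one.

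Of 23 genes that process IL-1 or form inflammasomes, 22 were measured, and 0 passed in either genotype comparison (3 at an unadjusted p under 0.05 in each, limma). That unadjusted limit was met by 9.03% of genes in RM and 7.42% in CD11b+ DC. The smallest p values were those of the DNA sensor Aim2 in RM (-0.43, adjusted p = 0.543, and -0.33 without Runx3Δ replicate 1, limma) and the calpain gene Capn2, whose enzyme cleaves pro-IL-1α, in CD11b+ DC (-0.91, adjusted p = 0.367, limma). Between the WT cell types 2 of 22 passed, beside 8.45% of genes by their brightest row. Both were lower in CD11b+ DC: the ATP receptor P2rx7, which triggers NLRP3, differed by -1.93 (adjusted p = 0.000444, limma) and Nlrp3 by -0.66 (adjusted p = 0.0214, limma). P2rx7 had a log2 level of 9.30, 10.06 and 9.83 in WT RM against 7.87 and 7.73 in WT CD11b+ DC. Between the Runx3Δ cell types 3 of 22 passed, beside 10.6% of genes. They were P2rx7 (-1.51, adjusted p = 0.000537), Nlrp3 (-0.49, adjusted p = 0.0330) and the pyrin gene Mefv (-0.50, adjusted p = 0.0404; limma). Over all 22, the median was -0.23 in the WT and -0.15 in the Runx3Δ comparison, against -0.01 and -0.02 over all genes.

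Of 24 genes of receptor signaling 21 were measured, and 0 passed between genotypes (1 in RM and 3 in CD11b+ DC at an unadjusted p under 0.05, limma). That unadjusted limit was met by 9.03% and 7.42% of all genes. Peli1, an E3 ligase of the IRAK complex, had a log2 level of 10.39, 10.84 and 10.91 in WT RM and 10.19, 10.20, 10.09 and 10.24 in Runx3Δ RM, a difference of -0.53 with no overlap (adjusted p = 0.235, limma) and of -0.54 without Runx3Δ replicate 1. In CD11b+ DC, Ikbkb, the gene of the kinase IKKβ, had a log2 level of 9.75 and 9.83 in the WT and 9.36, 9.38 and 9.45 in the Runx3Δ samples, a difference of -0.39 (adjusted p = 0.367, limma). The Runx3 effect on Ikbkb in CD11b+ DC minus that in RM was -0.42 (adjusted p = 1.00, limma), and it had the smallest p for that difference among the genes of the 4 lists. Between the WT cell types, Ikbkb (0.95, adjusted p = 0.000161), Traf6 (0.69, adjusted p = 0.0417) and Nfkb2 (0.39, adjusted p = 0.0380) were higher in CD11b+ DC in limma. The inhibitors Irak3 (-1.08, adjusted p = 0.0209) and Tollip (-0.57, adjusted p = 0.0163) were lower there in limma. In the Runx3Δ comparison 4 of these 5 passed in the same direction: Ikbkb (0.53, adjusted p = 0.00159), Traf6 (0.75, adjusted p = 0.00922), Irak3 (-1.54, adjusted p = 0.000666) and Tollip (-0.49, adjusted p = 0.0113; limma). Of all genes by their brightest row, 8.45% passed between the WT and 10.6% between the Runx3Δ cell types.

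All 16 listed genes that IL-1 induces in many cells were measured, and 0 passed between genotypes (3 in RM and 6 in CD11b+ DC at an unadjusted p under 0.05, limma). That unadjusted limit was met by 9.03% and 7.42% of all genes. Saa3, an acute-phase protein of macrophages, had a log2 level of 10.64, 7.57 and 8.06 in WT RM and 11.28, 10.74, 9.31 and 10.73 in Runx3Δ RM, a difference of 1.76 (adjusted p = 0.569, limma) with WT replicate 1 inside the Runx3Δ range, and of 1.51 without Runx3Δ replicate 1. The neutrophil chemokine Cxcl3 had a log2 level of 8.36 and 8.14 in WT CD11b+ DC and of 6.47, 7.45 and 7.56 in the Runx3Δ samples, a difference of -1.09 without overlap (adjusted p = 0.415, limma). The adhesion molecule Vcam1 moved the other way in the same comparison, from 8.73 and 8.69 to 9.61, 9.19 and 9.63, a difference of 0.76 (adjusted p = 0.376, limma). Cxcl2 differed by -0.44 in RM (adjusted p = 0.571, limma), and by -0.40 without Runx3Δ replicate 1. Between the WT cell types, Vcam1 (-2.09, adjusted p = 9.48e-05), Cxcl1 (-1.61, adjusted p = 0.00101) and Cxcl2 (-1.20, adjusted p = 0.00575) were lower in CD11b+ DC and Il6 was higher (1.19, adjusted p = 0.0338) in limma. In the Runx3Δ comparison 6 of 16 passed, all lower in CD11b+ DC: Saa3 (-2.68), Ccl2 (-2.20), Cxcl1 (-1.87), Cxcl3 (-1.69), Vcam1 (-1.64) and Cxcl2 (-1.38), with adjusted p from 0.000104 to 0.0400 (limma). Of all genes by their brightest row, 8.45% passed between the WT and 10.6% between the Runx3Δ cell types. The median of the 16 was -0.09 in RM and -0.26 in CD11b+ DC between genotypes, and -0.34 and -0.41 between the cell types of WT and Runx3Δ mice.

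**Figure D4:**
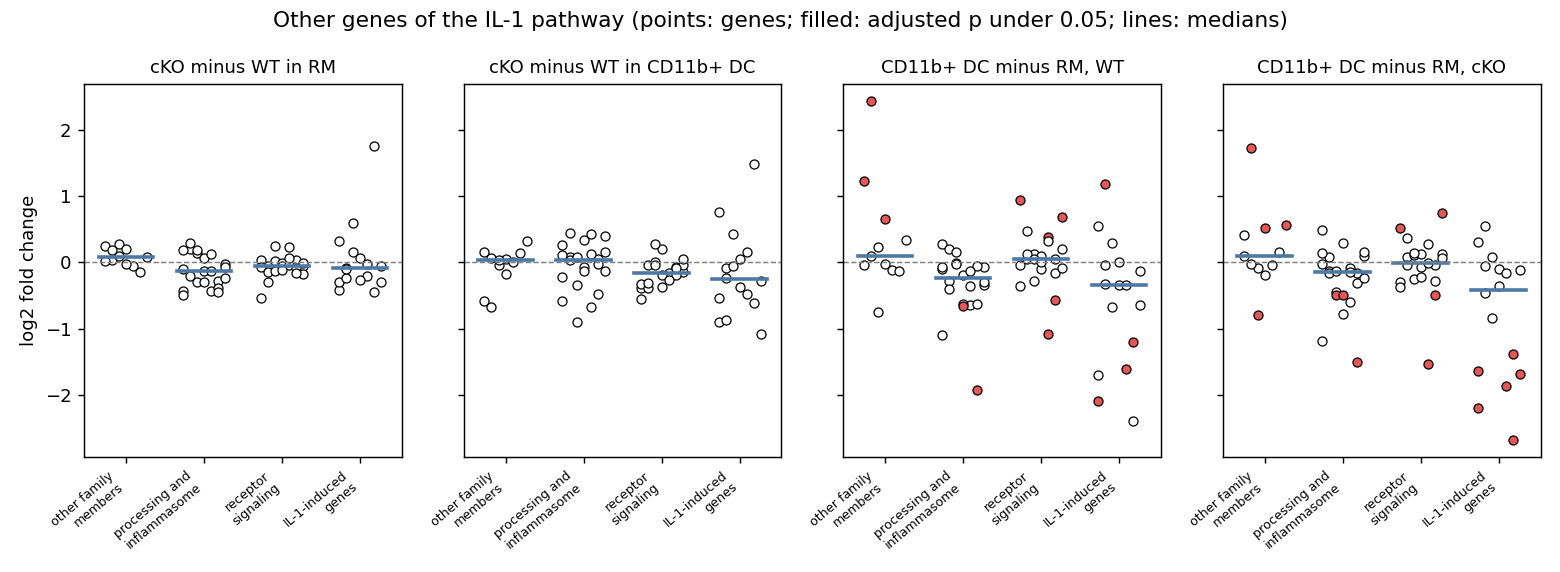
Log2 fold changes (y axis) of the genes of 4 IL-1 pathway lists (x axis) in 4 comparisons; points are genes, filled where they passed an adjusted p under 0.05 (limma), lines are medians, and cKO stands for Runx3Δ. No gene is filled between genotypes, and Il18rap, at 2.45, is the highest point between the WT cell types.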

How the data were processed

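RNA of 12 pooled samples was hybridized to arrays. The deposited values are log2 intensities that the authors made in Partek by RMA with GC correction. The platform record behind the annotation is a gene-level mouse array, whereas the methods name an exon array, so row names follow the gene-level annotation; the build in the submitters' processing notes is mm9. Of 35556 rows, 12146 carried no gene symbol and 1621 several, and these were tested but not named. A gene with several rows was read from the brightest.

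One model over the 4 groups was fitted by lmFit and eBayes of limma 3.58.1 (R 4.3.3), and p was adjusted by Benjamini-Hochberg over all rows, with 0.05 as the limit. Random blocks used statmod 1.5.0, and figures Python 3.11.15 with matplotlib 3.10.9. The thresholds of the study (1.5-fold, p 0.05) were counted beside it. The members and gene lists were chosen with earlier results of these data known, and so was the rule for named genes: all members, the genes of the pathway lists at an adjusted p under 0.05 in a comparison (or the 4 with the smallest p), and the 3 genes most like each member with a mean level of at least 5. The fit was tested on simulated data.

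Litter numbers in the labels pair samples. After removal of group means, the correlation was 0.0958 in the median of 13 pairs within a litter (-0.0412 to 0.358) and -0.0347 in that of 40 pairs across litters (-0.257 to 0.203). Alternatives were litter as a fixed or random block, the 2 groups alone, the methods' test, a trend with robust prior, array weights, a filter on dim rows, median centring, 1 row or the mean of rows per gene, quantile normalization, removal of 6617 unnamed leading rows, and each sample left out. Precision is limited by how few arrays there are.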

Additional observations from a re-analysis of the deposited data

Results flagged for a closer look

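In a group of 4 samples, the receptor antagonist gene Il1rn had 1 sample far from the others: Runx3Δ RM replicate 1 had a log2 level of 11.82, and the other 3 Runx3Δ RM samples lay between 12.03 and 12.05. The gap was 0.904 of the range of the group. The same sample stood apart over all rows. Chance sets apart about 5% of such groups, and 8 were examined, 1 for each member. Without this sample the Il1rn difference between Runx3Δ and WT RM was 0.12 (adjusted p = 0.943, limma) instead of 0.06.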

How the results depend on the processing

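The count of members at an adjusted p under 0.05 stayed at 0 in both genotype comparisons and in the difference between them under every alternative run. Between the WT cell types it was 4, and it was 1 with the 2 groups alone, 0 with the methods' test on 2 groups and 2 with the methods' test on 4 groups; with 1 sample left out it ran from 0 to 4. Between the Runx3Δ cell types it was 3, and it was 1 with the methods' test on 2 groups and 5 with quantile normalization, with 1 row or the mean of rows per gene, or without the leading unnamed rows; with 1 sample left out it ran from 2 to 3. At the thresholds of the study, the RM count of 2 was 0 with the methods' test on 2 groups. With 1 sample left out it ran from 1 to 3. It was 1 without WT replicate 2 or Runx3Δ replicate 2, and 3, with Il1r2 added at -0.62, without Runx3Δ replicate 3. The CD11b+ DC count of 2 was 1 with litter as a replicate block, and ran from 1 to 3 with 1 sample left out (1 without Runx3Δ replicate 1 and 3, with Il1a added, without Runx3Δ replicate 3). Litter as a replicate block changed, besides that count, the sign of Il1a in RM to -0.13 and the call of Il1rn between the Runx3Δ cell types.

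Il33 lay below 0 in RM (-1.22 to -0.67) and CD11b+ DC (-1.73 to -1.41) under all 25 alternatives of each, with adjusted p from 0.202 to 0.806 and from 0.121 to 1.00. Averaged over the cell types, Il33 and Il1rap each passed in 4 of 23 alternatives: array weights, 1 row or the mean of rows per gene, and without the leading unnamed rows. Other values that changed sign were small and not called. With 1 sample left out, Il1a in RM ran from -0.073 to 0.215, Il1rn in RM from -0.075 to 0.176, Il1r2 in CD11b+ DC from -0.159 to 0.029 and Il18 in CD11b+ DC from -0.133 to 0.379. Between the WT cell types, Il1b ran from -0.024 to 0.053 and Il33 from -0.419 to 0.131. Between the Runx3Δ cell types, Il18 ran from -0.455 to 0.057, and Il1b was 0.031 with quantile normalization. Averaged over both cell types, Il18 ran from -0.167 to 0.089. The cause of these changes was not tested. With 1 WT CD11b+ DC sample left, that sample was assumed to vary like the other groups.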
